A study of Mus musculus with 16 samples.

Results

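The suppressor of cytokine signalling (SOCS) family of the mouse, Socs1 to Socs7 and Cish, was followed through the m6A peaks of 8 MeRIP-seq libraries of cortical peri-infarct tissue. The 8 genes were taken by name, and every listed peak that shared at least 1 base on the same strand with their GENCODE M39 exons on GRCm39 was counted as theirs. Of the 8 members, 7 held a peak, 135 peaks in all, against 13851 genes with a peak and 169564 peaks in the whole series. MeRIP-seq pulls down RNA fragments with an antibody against m6A, a methyl group on the adenosine of an RNA, and a peak is a stretch where the pulled-down RNA (IP) exceeds the RNA put in (input).

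The mice were male C57BL/6J, 6 to 8 weeks old at surgery. Sham mice had the operation without the filament, and MCAO/R mice had the middle cerebral artery blocked by a filament for 2 h and were then reperfused for 0 h, 6 h or 24 h. Each of the 4 groups has 2 IP libraries, and neither the labels nor the study's methods say whether these came from separate mice or from pooled tissue, so that their spread may be technical. A peak list was used for each IP library, while the inputs were not analysed here. A list holds peaks and scores but no read counts, so the depth is unknown, and a peak that is missing because of less methylation, less RNA per cell or fewer cells with the transcript cannot be told apart. The score has no stated scale, and only its percentile, the share of peaks in the same list with a lower score, is given.

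SOCS proteins bind phosphorylated tyrosines on cytokine receptors, Janus kinases (JAK) or receptor tyrosine kinases through an SH2 domain, and through their SOCS box they recruit elongins and cullin 5, which tag the bound protein with ubiquitin. CIS (encoded by Cish) and SOCS1 to SOCS3 are mostly induced by the STAT factors they then restrain, which closes a negative feedback loop. SOCS4 to SOCS7 have longer N-terminal parts and are linked more to growth factor and insulin signalling. Socs mRNAs are known m6A targets: in T cells that lack the methyltransferase METTL3, some of them decay more slowly.

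Sequences from recurrent coding regions of Socs4, Socs5 and Socs7, and from the regions present in both lists of a time but in neither Sham list, are shown first; Socs6 is not among them. They are given in the sense of the RNA and as GRCm39 has them. Capitals mark matches to RRACH, the usual context of m6A (R stands for A or G, H for A, C or T), searched on the sense strand only; overlapping matches were counted each. The 4 coding stretches that follow are the longest runs of bases covered by the largest number of lists in their region. They are in Socs4 (chr14:47527483-47527707, + strand, 8 lists), Socs5 near its stop codon (chr17:87442377-87442476, + strand, 8 lists), the 5′ part of the Socs5 coding sequence (chr17:87441227-87441276, + strand, 4 lists) and the first exon of Socs7 (chr11:97253586-97253735, + strand, 5 lists).
Socs4: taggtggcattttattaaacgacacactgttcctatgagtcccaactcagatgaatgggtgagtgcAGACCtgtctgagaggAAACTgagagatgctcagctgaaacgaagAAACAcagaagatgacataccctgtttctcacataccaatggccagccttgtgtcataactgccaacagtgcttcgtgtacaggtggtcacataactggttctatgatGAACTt
Socs5 near the stop codon: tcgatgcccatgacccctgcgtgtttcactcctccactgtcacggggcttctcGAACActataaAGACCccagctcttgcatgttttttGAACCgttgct
Socs5, 5′ part of the coding sequence: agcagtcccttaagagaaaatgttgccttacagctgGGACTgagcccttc
Socs7: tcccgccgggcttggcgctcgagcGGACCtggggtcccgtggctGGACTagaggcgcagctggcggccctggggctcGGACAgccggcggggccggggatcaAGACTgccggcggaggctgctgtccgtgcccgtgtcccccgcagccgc

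The Socs4 stretch of 225 nt held 4 RRACH sites and the Socs5 stretch of 100 nt held 3, and GGACT, a frequently methylated form of RRACH, was in neither. The Socs7 stretch of 150 nt held 4 RRACH sites, 1 of them GGACT, and the 50 nt of the 5′ part of Socs5 held a single GGACT. Among windows laid end to end along the transcripts of all coding genes, RRACH was found in 95.2% of those of 225 nt, 75.5% of those of 100 nt, 87.5% of those of 150 nt and 50.1% of those of 50 nt. GGACT was found in 20.9%, 9.78%, 14.4% and 4.82% of them. An RRACH match is thus frequent at these lengths and is no more than a description. Other stretches covered by the most lists of their region are not shown, and some held 0 RRACH. These were 50 nt of Socs7 exon 4 (5 lists), 45 coding nt of Socs4 at its stop codon (2 lists) and 18 nt of Socs2 (7 lists). RRACH was in 46.3% of windows of 45 nt and 19.5% of those of 18 nt. A stretch of 30 nt in the Socs5 3′ UTR (7 lists), also not shown, held 1.

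For the cytokine-induced members, 30 bases are shown from the 3′ UTR regions of Socs3 and Socs2 and from the region around the stop codon of Cish, together with a coding stretch of Socs3. The 30 bases were chosen within the stretch covered by the most lists as those with the most GGACT, then RRACH, so their matches were selected for. They are in Socs3 (chr11:117858075-117858104, − strand, 5 lists), Socs2 (chr10:95247635-95247664, − strand, 3 lists) and Cish (chr9:107178090-107178119, + strand, 2 lists), and the coding stretch of Socs3 is chr11:117858655-117858704 (− strand, 2 lists).
Socs3, 3′ UTR: ctttgacaagcGGACTctcccctccccttc
Socs3, coding sequence: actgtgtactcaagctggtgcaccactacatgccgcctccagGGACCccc
Socs2, 3′ UTR: gaAAACAgAAACCaatgcAGACAgAGACAt
Cish, around the stop codon: ccaactctgactgagccaggcaccctgctc

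Socs3 held 1 GGACT in these 30 bases, Socs2 held 4 RRACH sites without GGACT, and the Cish stretch held no RRACH. Of all windows of 30 nt, 32.9% held RRACH and 2.76% held GGACT. Over the exons of all 8 members, RRACH occurred 16.7 times per 1000 nt under the peaks of any list and 13.2 times per 1000 nt elsewhere, and GGACT 1.21 against 0.743 times. The order differed among members: RRACH was denser under the peaks of Socs5, at 19.2 against 10.4 per 1000 nt, and sparser under those of Cish, at 8 against 15.6.

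Recurrence separated the members. Socs4, Socs5, Socs6 and Socs7 had a peak in all 8 lists, as did 35.8% of the 11275 coding genes with any peak. Socs2 had a peak in 7 lists and was missing from Sham replicate 1, Socs3 had one in 6 and was missing from Sham replicate 1 and MCAO/R-0 h replicate 1, and Cish had one in 3. Socs1, a direct inhibitor of JAK kinases, had no peak in any list, as was the case for 48.2% of annotated coding genes. With no input values it is not known whether its transcript was present.

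The number of family peaks was 9 and 13 in the Sham lists, 14 and 17 at MCAO/R-0 h, 24 and 22 at MCAO/R-6 h, and 15 and 21 at MCAO/R-24 h. Both 6 h lists had more than every other list, and both Sham lists fewer. A stretch can be listed as 1 peak or as several: Socs4 had 1 peak of 900 nt in Sham replicate 1 and 4 peaks with 650 nt together in replicate 1 of 6 h. The members with a peak were 4 and 7 in Sham and 6 and 6 at 6 h. The lists themselves held 18775 to 24078 peaks, and per 10000 listed peaks the family had 4.79 and 6.45 in Sham, 7.06 and 7.06 at 0 h, 10.8 and 9.48 at 6 h, and 7.86 and 9.44 at 24 h, so the order of the lists at both ends was kept. Exonic bases under the family's peaks were 3075 and 3104 in Sham against 4393 and 4868 at 6 h, while at 0 h they were 2829 and 4179 and at 24 h 3779 and 4379. No test was made of these sums, since the members were listed with earlier results of these data known.

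**Figure D1:**
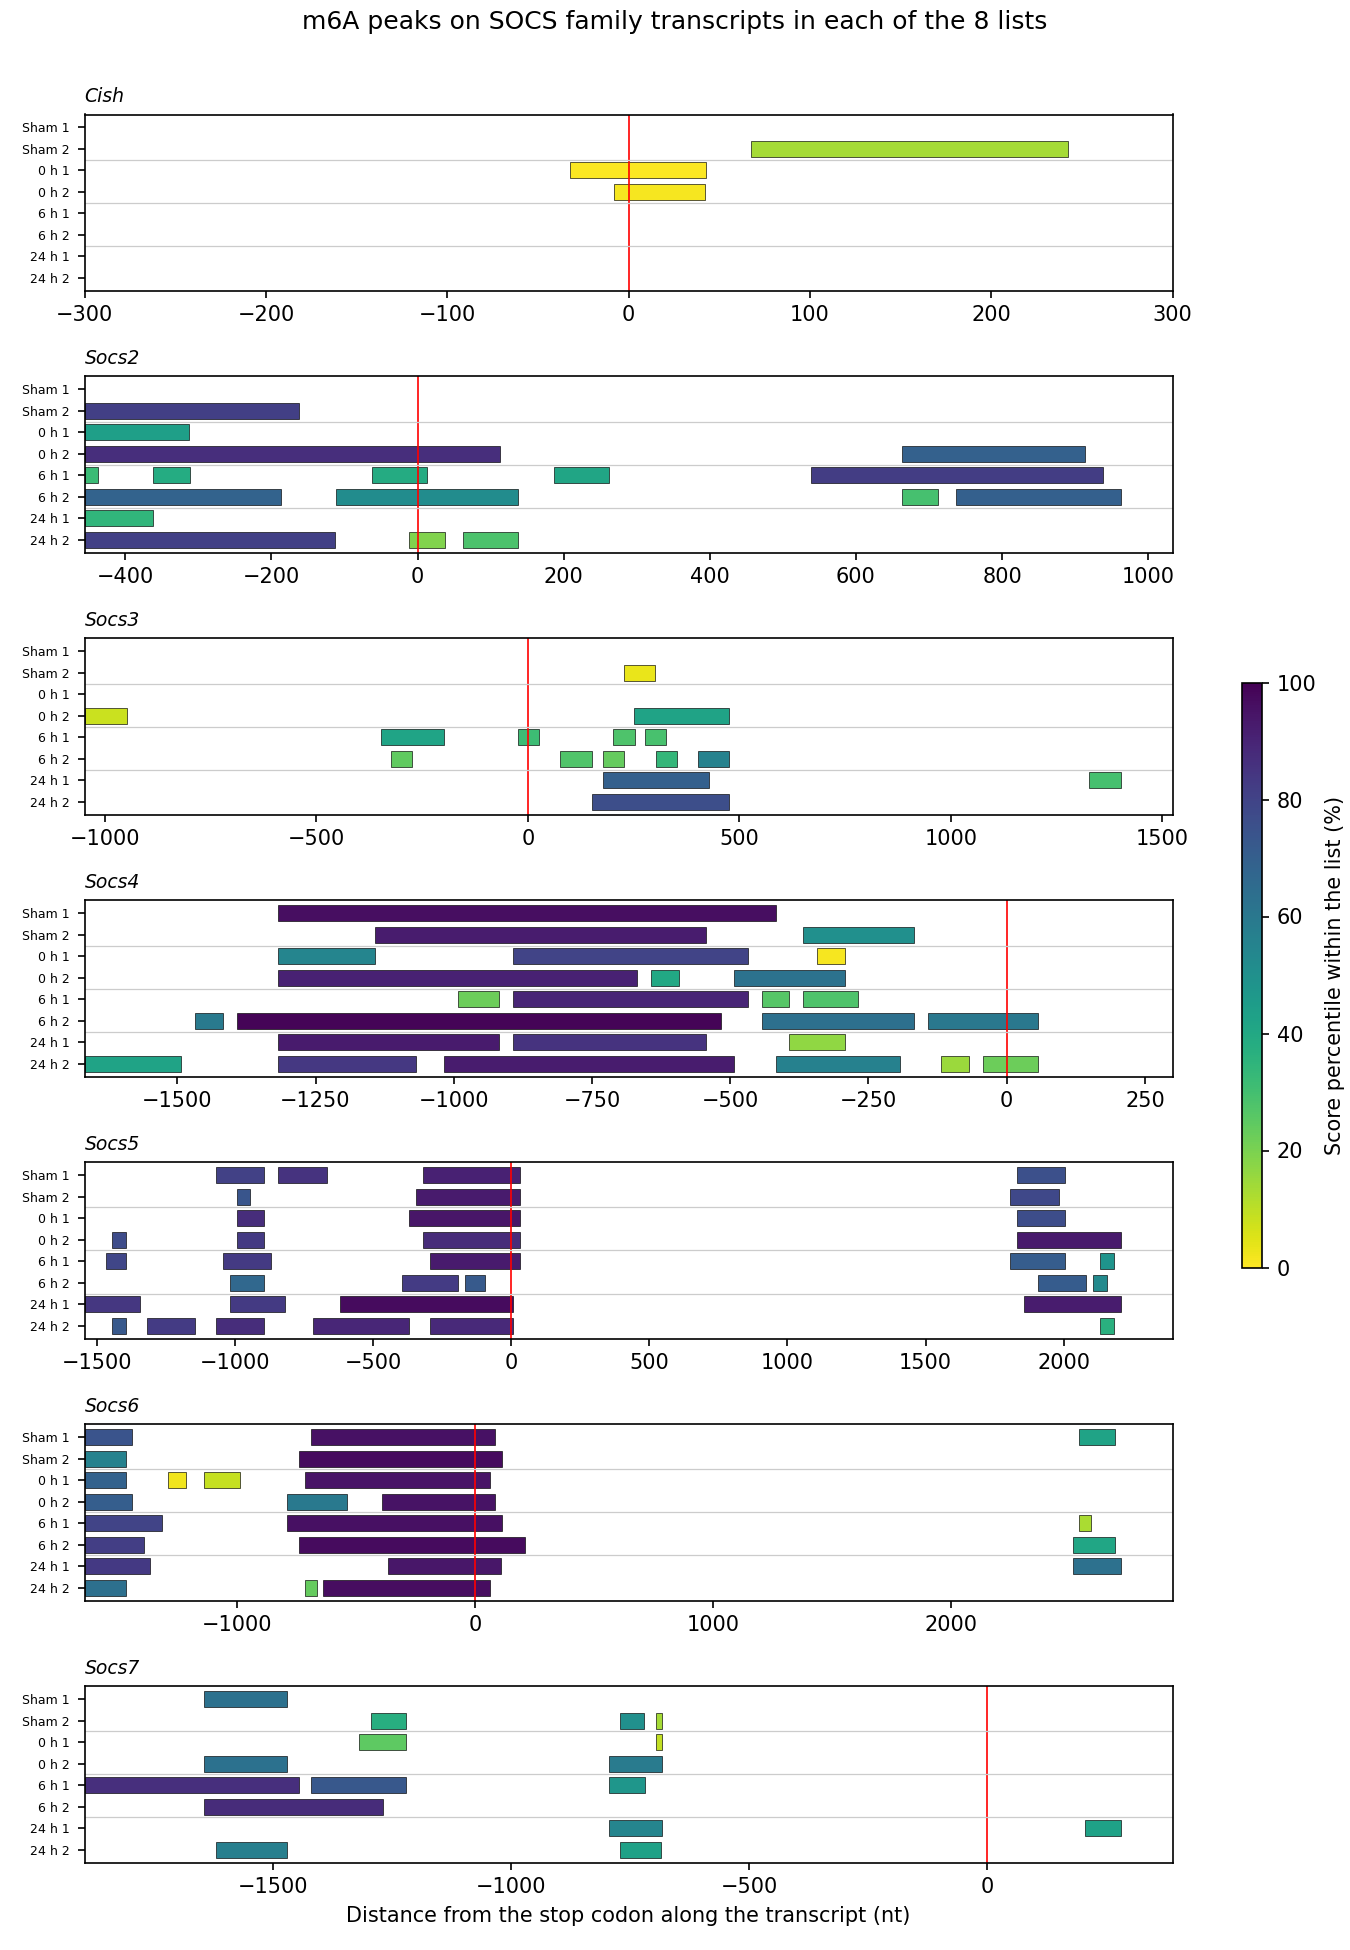
Peaks of the 7 members that held any, 1 panel each; the x axis is the distance from the stop codon along the transcript in nt (red line at 0), each row is 1 of the 8 lists in group order, each bar is a peak drawn with its exonic length around its centre, and its colour is the score percentile within the list. Socs4, Socs5 and Socs6 carry wide, high-ranking peaks in all 8 rows, whereas the peaks of Cish sit at or below the percentile of 13.5.

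By the centre of the peak, 94 of the 135 family peaks (69.6%) lay in coding sequence, 38 (28.1%) in the 3′ UTR and 3 (2.22%) in the 5′ UTR. The peaks of all other coding genes were 60.4% coding, 34.9% in the 3′ UTR and 4.73% in the 5′ UTR. Within 200 nt of the stop codon lay 16.3% of the family peaks and 20.4% of the others. Exons longer than 400 nt, in which m6A is known to be concentrated, held 93.3% of the family peaks and 81.8% of the others. In Socs1, Socs3, Socs4, Socs5 and Socs6 the whole coding sequence lies in a single exon. The median family peak was 175 nt wide with a percentile of 63.6, against 125 nt and 52.0 for the peaks of all other coding genes. The members differed in this: the median percentile was 82.8 for Socs5, 72.1 for Socs6, 59.6 for Socs4 and 52.3 for Socs7. It was 44.1 for Socs2, 29.6 for Socs3 and 1.29 for Cish. A site found in several lists counts once for each of them.

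Joined across lists by a shared exonic base, the family peaks formed 27 regions. Of these, 12 (44.4%) were in 1 list and 5 (18.5%) in all 8, against 52.6% and 8.97% of the 52776 regions of the series. Of the member regions found in either list of a group, 54.5% were in both lists in Sham, 60% at 0 h, 61.1% at 6 h and 56.2% at 24 h, beside 36.12% to 39.05% of all regions.

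Socs4, an adaptor that has been linked to turnover of the EGF receptor, had a broad region over its coding sequence (chr14:47526983-47528207), from 1392 to 168 nt before the stop codon. Its percentile was 96.1 and 92.5 in Sham, 80.0 and 91.0 at 0 h, 89.6 and 99.1 at 6 h, and 92.7 and 92.3 at 24 h. Both 0 h lists were below both Sham lists, and at 6 h and 24 h the values of Sham were overlapped or enclosed. The width under peaks in the whole gene was 900 and 800 nt in Sham, 650 and 900 nt at 0 h, 650 and 1400 nt at 6 h, and 850 and 1325 nt at 24 h, and the replicates of 6 h and of 24 h stood farther apart than the group means. Around the stop codon itself another region was listed only in replicate 2 of 6 h and of 24 h, at percentiles of 59.9 and 22.4.

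Socs5, which inhibits EGF and interleukin 4 signalling, carried a region of 1100 nt in all 8 lists (chr17:87441602-87442701), from 1068 nt before to 31 nt after the stop codon. Its percentile was 91.0 and 92.6 in Sham, 94.3 and 87.5 at 0 h, 92.8 and 82.7 at 6 h, and 97.0 and 89.3 at 24 h. These overlapped in every comparison of a time with Sham. No list covered the whole 1100 nt: each held 400 to 825 nt of it, as 2 or 3 separate peaks. The percentile is that of the highest peak, which in replicate 2 of 24 h (89.3) was not the one nearest the stop codon (88.3). With at least 50% of the shorter peak shared, the region was split, with p of 0.276 and 0.771 in the exact permutation test described below. The other Socs5 region in all lists lay far into the 3′ UTR (chr17:87444477-87444876), 1807 to 2206 nt past the stop codon, at 75.5 and 78.4 in Sham, 76.8 and 93.1 at 0 h, 71.0 and 71.3 at 6 h, and 92.3 and 36.7 at 24 h. The 24 h replicates differed here by more than the 6 other lists did among themselves. No base of this region was covered in more than 7 lists. The peak of replicate 2 of 24 h spanned 50 nt and overlapped neither Sham peak, so its percentile of 36.7 belongs to another stretch of the region.

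At the 5′ end of the Socs5 coding sequence, a region of 200 nt (chr17:87441127-87441326, 1543 to 1344 nt before the stop codon) was in neither Sham list. It was listed in replicate 2 of 0 h at 77.1, in replicate 1 of 6 h at 78.9 and in both 24 h lists at 84.3 and 72.3. Exonic bases under all Socs5 peaks were 875 and 600 in Sham, 675 and 875 at 0 h, 825 and 625 at 6 h, and 1375 and 1100 at 24 h. Both 24 h lists exceeded all 6 others.

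Socs6, which binds insulin receptor substrates and KIT, had a region from 789 nt before to 210 nt after the stop codon whose mean percentile was the highest of the family in each of the 4 groups (chr18:88887104-88888103, − strand), with a stretch of 425 nt covered in all 8 lists. Its percentile was 95.5 and 96.9 in Sham, 94.7 and 95.2 at 0 h, 96.1 and 97.0 at 6 h, and 94.0 and 96.7 at 24 h. The main region of Socs4 ranked above it in Sham replicate 1 and in replicate 2 of 6 h, and that of Socs5 in replicate 1 of 24 h. The values spanned about 3 percentile points, and only the 0 h lists were both below Sham. Bases under its peaks were 1125 and 1025 in Sham, 1175 and 925 at 0 h, 1275 and 1375 at 6 h, and 950 and 925 at 24 h. Both 6 h lists were above both Sham lists, and both 24 h lists below them.

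The other Socs6 region in all lists lay at the start of the coding sequence (chr18:88888629-88888953), 1639 to 1315 nt before the stop codon. Its percentile was 73.9 and 55.8 in Sham, 69.1 and 70.4 at 0 h, 80.1 and 81.8 at 6 h, and 83.3 and 63.6 at 24 h. Both 6 h lists were above both Sham lists, and the 24 h lists overlapped with them. A region in the distal 3′ UTR, 2511 to 2710 nt past the stop codon, was in Sham replicate 1, both 6 h lists and replicate 1 of 24 h, at percentiles of 12.9 to 63.0.

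Socs7, a partner of insulin receptor substrates and of NCK, differs in gene structure, with 9 coding exons, and no region of it was in all 8 lists. A region of 675 nt in the first exon (chr11:97253311-97253985) was in 7 lists, at percentiles of 62.6 and 37.5 in Sham, 24.8 and 62.6 at 0 h, 86.5 and 87.8 at 6 h, and 57.3 in replicate 2 of 24 h. It covered 175 and 75 nt in Sham, 100 and 175 nt at 0 h, 650 and 375 nt at 6 h and 150 nt in that 24 h list. The 6 h lists were the widest and the highest-ranking. Since the peaks in this exon do not all overlap each other, no base of the region was covered in more than 5 lists.

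Further along, 794 to 684 nt before the stop codon, a Socs7 region of exon 4 was in 6 lists at percentiles of 9.35 to 58.8. For 5 of the Socs7 peaks the exonic length was a multiple of 25 nt, the grid of the peak caller, only when exons of further annotated transcripts were added, so those peaks extend past the coding exon.

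**Figure D2:**
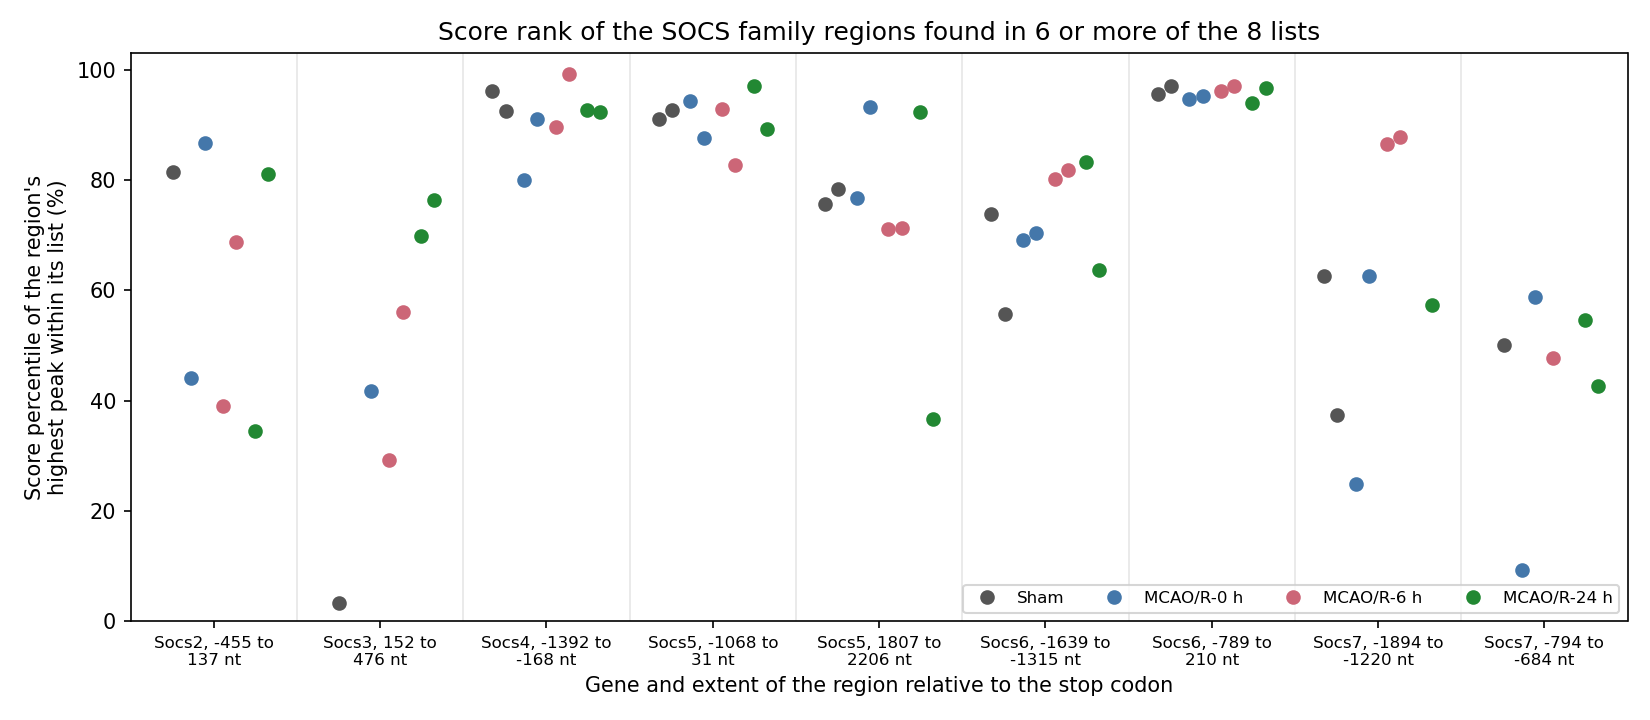
Score percentile within its list (y axis, 0 to 100%) of the highest peak in each of the 9 SOCS family regions found in 6 or more of the 8 lists, labelled on the x axis by gene and by distance from the stop codon in nt; each point is 1 list, coloured by group, and a list without the region has no point. The main regions of Socs4, Socs5 and Socs6 lie between 80.0 and 99.1 in every list, while the Socs3 region runs from 3.30 in Sham to 76.4 at 24 h.

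Socs3, the main brake on gp130 receptors and STAT3, was listed at low rank or not at all in Sham. Its exonic bases under peaks were 0 and 75 in Sham, 0 and 325 at 0 h, 300 and 300 at 6 h, and 325 and 325 at 24 h. All 4 lists of 6 h and 24 h exceeded both Sham lists, while 0 h spanned the whole range. The lists without a Socs3 peak, Sham replicate 1 and MCAO/R-0 h replicate 1, held 18775 and 19837 peaks, and MCAO/R-24 h replicate 1 held the gene's peaks with 19072. With the 18775 highest-scoring peaks of every list, Socs3 had a peak in 5 lists. The part of list length in these values was not tested.

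Most of this lay in a 3′ UTR region (chr11:117857905-117858229), 152 to 476 nt past the stop codon. Its percentile was 3.30 in Sham replicate 2, 41.8 in replicate 2 of 0 h, 29.1 and 56.1 at 6 h, and 69.8 and 76.4 at 24 h. It covered 75 nt in that Sham list, 225 nt at 0 h, 100 and 175 nt at 6 h, and 250 and 325 nt at 24 h, with the widest and highest-ranking peaks at 24 h.

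In the coding sequence of Socs3, a region 348 to 199 nt before the stop codon (chr11:117858580-117858729) was in both 6 h lists, at percentiles of 41.5 and 24.3, and in no other list. Replicates of 6 h carried 4 and 5 separate Socs3 peaks, against 0 to 2 in every other list. Exons of 2 antisense genes overlap those of Socs3, 5 of its 15 peaks shared a base with an antisense exon, and the sources used here do not say that the reads kept their strand, so reads of the antisense RNA cannot be told apart there.

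Socs2, a regulator of growth hormone signalling, carried a region from 455 nt before to 137 nt after the stop codon in 7 lists (chr10:95248380-95248972). Its percentile was 81.4 in Sham replicate 2, 44.1 and 86.7 at 0 h, 38.96 and 68.7 at 6 h, and 34.4 and 81.0 at 24 h. Replicate 2 was the higher in every MCAO/R group, and the groups overlapped. In the 3′ UTR, a region 538 to 962 nt past the stop codon (chr10:95247555-95247979) was listed at 69.3 in replicate 2 of 0 h and at 82.3 and 69.7 at 6 h, and was in no list of Sham or 24 h.

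Exonic bases under Socs2 peaks were 0 and 293 in Sham, 143 and 818 at 0 h, 618 and 793 at 6 h, and 93 and 468 at 24 h. The 6 h lists were above both Sham lists, and at 0 h the replicates differed by more than any group means. With the exons of every annotated transcript this separation was lost, at 669 and 969 nt in Sham against 875 and 1494 nt at 6 h. The values depend on the gene model in other ways too: 7 of the 17 Socs2 peaks were on the 25 nt grid only with exons of further transcripts. The annotation gives Socs2 52 transcripts, some reaching far downstream, and with the exons of all of them 11 more peaks were counted and Sham replicate 1 also had a peak, which made 8 lists. The most recurrent of the added regions (chr10:95224149-95226439) was in 7 lists at percentiles of 25.7 to 64.1.

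Cish, the first family member to be found and a target of STAT5, had 1 peak in each of 3 lists, all near the stop codon. Bases under them were 0 and 175 in Sham, 75 and 50 at 0 h, and 0 in all 4 lists of 6 h and 24 h. The 0 h peaks overlapped each other (chr9:107178065-107178139), at percentiles of 0.615 and 1.29, while the Sham peak lay next to them at 13.5. These are among the lowest scores of their lists.

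**Figure D3:**
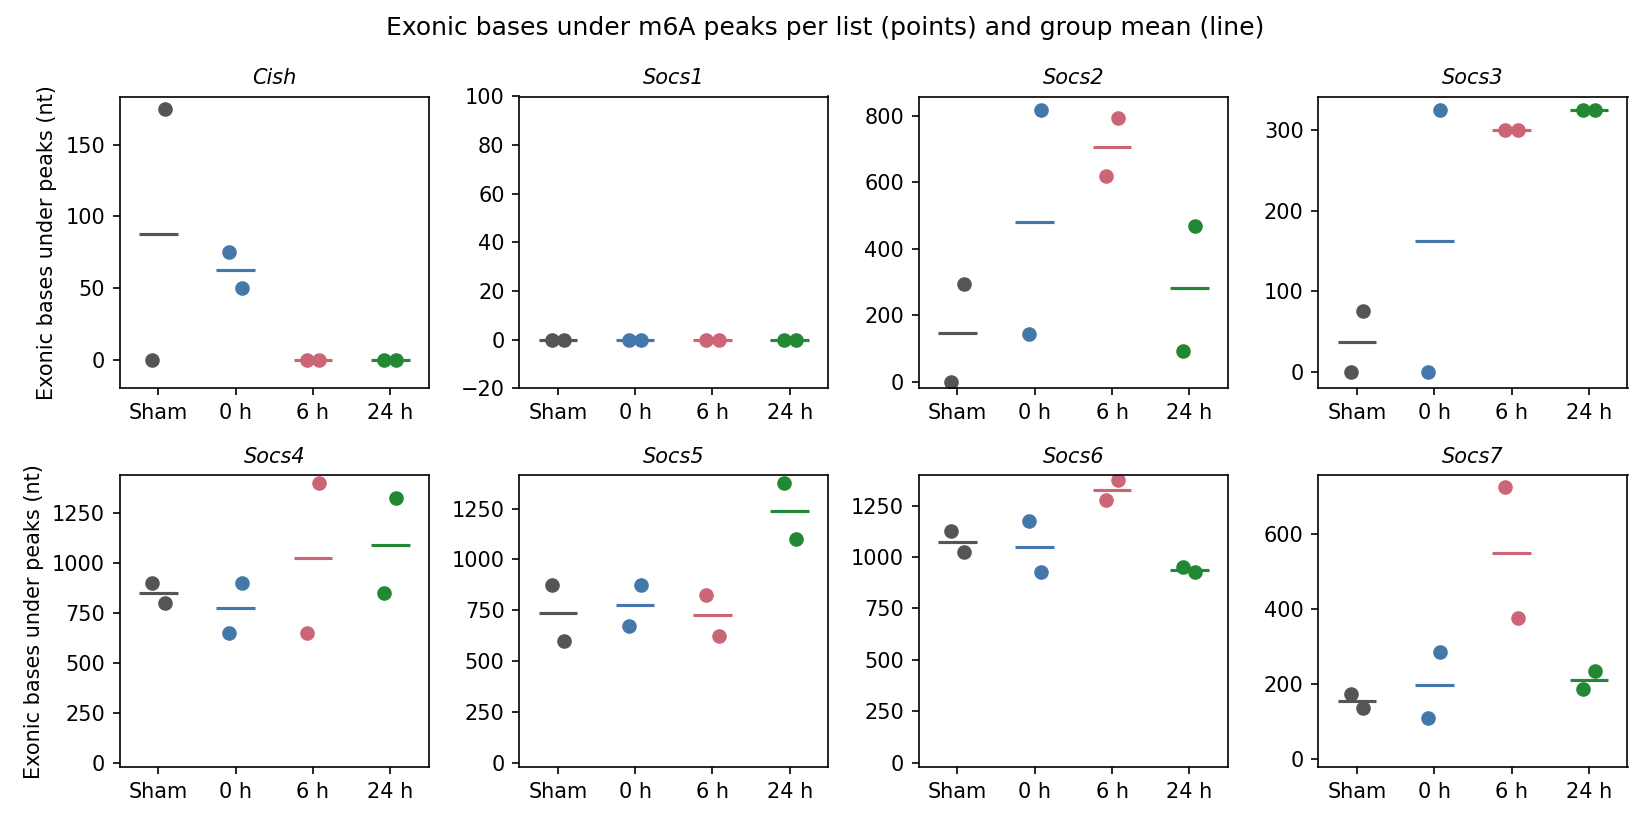
Exonic bases under m6A peaks (y axis, nt, a scale of its own in each panel) of the 8 members by group (x axis); each point is 1 list and the line is the mean of the 2 lists of a group. Socs3 is at 300 or 325 nt in the 4 lists of 6 h and 24 h and at 0 or 75 nt in Sham, Socs5 is highest at 24 h, and Socs1 is at 0 throughout.

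The question that these groups pose is whether the family's m6A peaks differ with reperfusion time. The 4 groups were compared gene by gene on exonic bases under peaks, by an exact permutation test over the 105 ways to divide the 8 lists into 4 pairs (one-sided, a larger difference counting), for all 11102 genes with a peak in at least 2 lists. This exact test can reach p = 0.00952, but where a difference lies in 1 group alone, the 15 divisions that keep its lists together can hold p at up to 0.143. Group means ± SD (n = 2) were 155.5 ± 27.6, 198.5 ± 124, 550 ± 247 and 211 ± 35.4 nt in Sham, 0 h, 6 h and 24 h for Socs7 (exact p = 0.114), 737.5 ± 194, 775 ± 141, 725 ± 141 and 1238 ± 194 nt for Socs5 (exact p = 0.124), and 1075 ± 70.7, 1050 ± 177, 1325 ± 70.7 and 937.5 ± 17.7 nt for Socs6 (exact p = 0.143).

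Socs3 had exact p = 0.314, Socs2 0.381, Cish 0.429 and Socs4 0.848, and Socs1 was not tested. Thus 0 of the 7 members tested had p under 0.05 before adjustment, where 398 genes, 3.58% of those tested, did. After Benjamini-Hochberg adjustment no gene of the series passed 0.05 in this exact test (smallest adjusted p = 0.817), and the members had adjusted p of 0.817 to 1. The same exact test on score percentile was run for the 4735 regions found in all 8 lists. The 5 member regions among them had exact p of 0.419 to 0.771, 0 of 5 under 0.05, beside 6.67% of the 4735 (316 regions) before adjustment and 0 after it (smallest adjusted p = 0.673). Since p in this exact test cannot go below 0.00952, an adjusted p under 0.05 would need a large share of all genes or regions at that value. The lack of any is therefore no sign that nothing changed.

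A comparison of a single time with Sham, 2 lists against 2, cannot go below p = 0.333 in a two-sided exact permutation test, so these were counted without a test. Against Sham, 0 of the 7 members had more bases in both 0 h lists than in both Sham lists, while 18.9% of all genes tested did, and 0 had fewer, while 6.01% did. At 6 h, 4 of 7 (Socs2, Socs3, Socs6 and Socs7) were higher, beside 21.8% of all genes, and 3 of 7 with the exons of every transcript, without Socs2, while 0 were lower, beside 8.2%. At 24 h, 3 of 7 (Socs3, Socs5 and Socs7) were higher, beside 16.8%, and 1 (Socs6) was lower, beside 11.3%. Socs3 and Socs7 were thus higher than Sham at both later times, and Socs6 stood above Sham at 6 h and below it at 24 h. For Socs7 the gap at 24 h was small, with 186 and 236 nt against 175 and 136 nt in Sham. Its first-exon region, the widest at 6 h, was not higher at 24 h, with 0 and 150 nt against 175 and 75 nt in Sham.

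A region was counted as gained where both lists of a time and neither Sham list held it, and as lost in the reverse case, among the regions found in at least 2 of the 4 lists. At 0 h, 1 of 10 member regions was gained, that of Cish around the stop codon, beside 8.58% of all regions. With all lists reduced to their 18775 highest-scoring peaks, Cish had a peak in 1 list only and no member region was gained at 0 h. At 6 h, 2 of 12 were gained, the 3′ UTR region of Socs2 and the coding region of Socs3, beside 11.1%. At 24 h, 1 of 11 was gained, the 5′ coding region of Socs5, beside 8.78%. No member region was lost at any time, where 4.18%, 4.54% and 6.39% of all regions were at 0 h, 6 h and 24 h. With 10 to 12 regions tested at a time, these counts are near the share in all regions. With the higher-scoring 50% of each list they were 0, 1 and 2 at 0 h, 6 h and 24 h. The gained regions of 6 h differ in rank, the Socs2 region with a mean percentile of 76.0 ± 8.92 and the Socs3 region with 32.9 ± 12.2 (SD, n = 2).

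The partners of the SOCS proteins were examined in the same lists. The ligands that induce or are restrained by the family were nearly without peaks: 2 of 24 had any (Clcf1 and Thpo), and Il6, Lif, Osm and Ifng were among the 22 with none. Of 30 cytokine receptors, 21 had a peak and 6 had one in all 8 lists, among them Il6st, which encodes gp130, the receptor chain to which SOCS3 binds. Of the 4 JAK genes, 3 had a peak (Jak3 did not) and Jak1 and Jak2 had one in all 8 lists. Of the 7 STAT genes, 5 had a peak, and Stat3 had 1 in each Sham list, of 75 and 50 nt, and in no other list; these 2 peaks do not overlap, so they are no shared region.

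**Figure D4:**
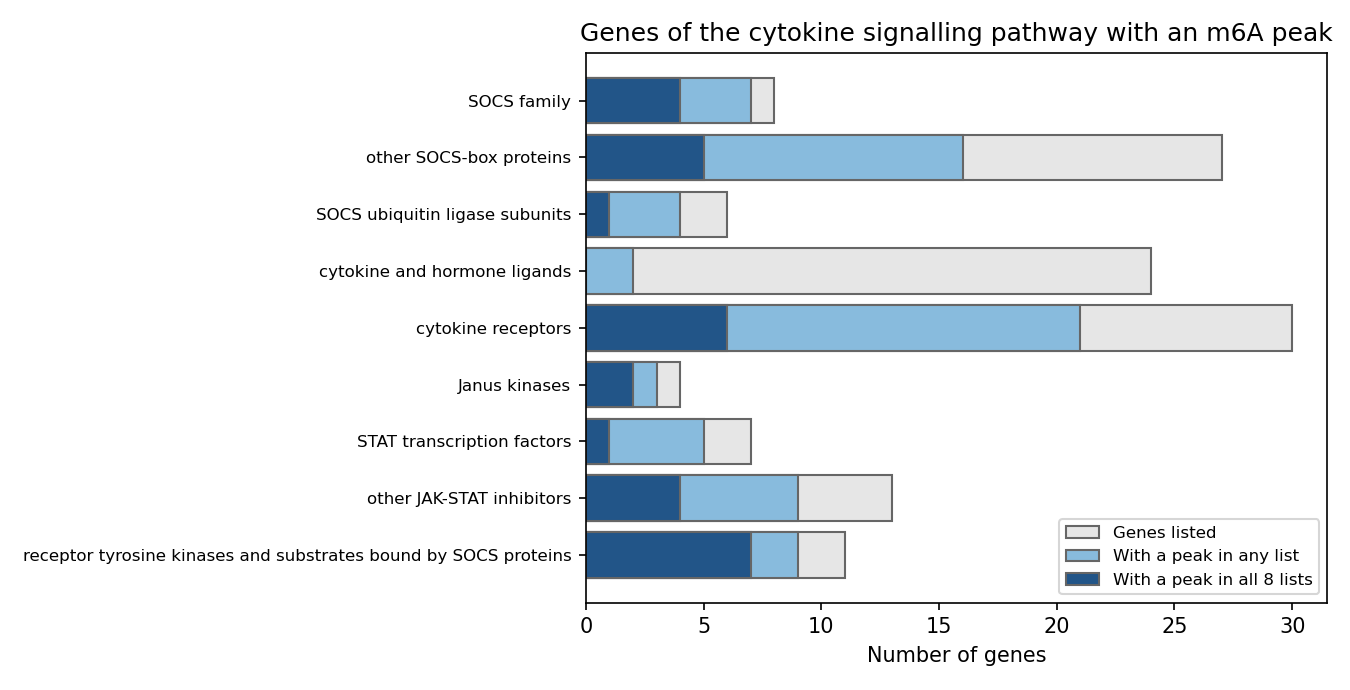
Number of genes (x axis) in each list of the SOCS pathway (y axis): listed (grey), with an m6A peak in any of the 8 lists (light blue) and with a peak in all 8 lists (dark blue). Of the SOCS family 7 of 8 have a peak and 4 have it in all lists, while of 24 ligands 2 have a peak.

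Of the 27 other SOCS-box proteins, 16 had a peak and 5 had one in all 8 lists, and of the 6 subunits of the SOCS ubiquitin ligase 4 had a peak and 1 had one in all lists, with none in Elob or Eloc, the elongins B and C. Other inhibitors of the pathway had a peak in 9 of 13 genes, and receptor tyrosine kinases and substrates bound by SOCS proteins in 9 of 11, 7 of them in all 8 lists. In the test over all genes, p before adjustment was under 0.05 in 1 of 15 tested SOCS-box genes, 2 of 18 receptors, 1 of 9 receptor tyrosine kinases and substrates and none of the others. No adjusted p passed, to which the limit given above applies.

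Of the 21 receptor genes with a peak, 2 gained a region at 0 h, 10 at 6 h and 6 at 24 h, beside 9.84%, 12.1% and 9.17% of the 11271 coding genes that hold a region. A region was lost in 1, 1 and 2 of them, beside 5.07%, 5.49% and 7.09%. The highest-ranking gains were in Prlr, the prolactin receptor, whose coding region gained at 6 h had percentiles of 86.2 and 83.9, and in Il4ra, the interleukin 4 receptor to which SOCS5 is linked, whose 3′ UTR region gained at 24 h had 76.1 and 69.2. Exonic bases under Il4ra peaks were 0 in both Sham and both 0 h lists, 525 and 325 at 6 h, and 650 and 1200 at 24 h (exact p = 0.0286, adjusted p = 0.817). Irs4, an insulin receptor substrate, had peaks in the 6 h lists only, with 825 and 900 nt at percentiles of 87.5 and 90.2. It was not alone in this: Lepr (400 and 175 nt), Asb4 (175 and 75 nt) and Asb14 (325 and 146 nt) also had peaks in both 6 h lists only. Prlr had 575 and 1050 nt at 6 h, 50 nt in replicate 2 of 24 h and 0 elsewhere. The reason for this shared 6 h pattern was not tested. Insr, the insulin receptor, had a peak in all 8 lists and gained a coding region at 6 h at 67.6 and 74.0.

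Among the inhibitors, Sh2b3 gained a coding region at 24 h at 55.7 and 53.8, and Cbl, a ubiquitin ligase, gained one at 0 h at 51.7 and 66.6. Of the SOCS-box genes, Rab40c gained a 3′ UTR region at 6 h at 66.9 and 37.4, and Asb13 one at 0 h at 14.6 and 46.2. Rnf7, the RING subunit of the ligase, lost its coding region at 0 h, where the Sham lists had it at 56.6 and 69.4 and 91 nt each. Both 6 h lists held the Rnf7 region again, with 16 and 91 nt, and neither 24 h list did.

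Likeness was measured as the number of the 8 lists in which 2 genes agree in having a peak or not. Asb1, Ifnar2 and Sh2b3 matched Socs2 in all 8 lists, and Il15ra matched Socs3 in all 8. These patterns are shared by many genes: that of Socs2 by 236 coding genes (2.09% of those with a peak), that of Socs3 by 77 (0.683%) and that of Cish by 17 (0.151%).

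The labelled tissue was checked by peaks on marker transcripts, where a peak shows that the transcript was there and its lack shows nothing. Peaks were found on 4 of 7 neuronal, 4 of 5 astrocyte, 4 of 5 microglial and 4 of 4 endothelial markers, and Snap25, Syt1, Slc17a7, Gfap and Aif1 had none. Of 5 markers of blood-derived myeloid cells, which enter infarcted cortex and express SOCS genes, none had a peak in any list, and of 5 genes of liver and heart 2 did. These were Tnnt2, in 5 lists, and Myh6, in 1. No neuronal marker had a peak in more than 5 lists (Rbfox3 and Gad1), so recurrence on neuronal markers did not exceed that on Tnnt2. Among the tested markers of these lists, Cx3cr1 of microglia alone had p under 0.05 before adjustment, with 650 and 625 nt in Sham, 625 and 850 nt at 0 h, 400 and 250 nt at 6 h and 1275 and 900 nt at 24 h (exact p = 0.0286, adjusted p = 0.817). The part of cell composition in the values of the family was not tested.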

How the data were processed

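The authors used Trim Galore 0.6.7 for trimming, HISAT2 2.2.1 for alignment to GRCm39 and samtools to discard reads without a unique position. Their peaks came from exomePeak2 with cutoffs of 0.05 on p-value and 0.5 on log2 fold change. The deposited lists give each peak's span, strand and score; the score's scale and any pooling of replicates are not given in the sources used here. Groups came from the sample labels.

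With Python 3.11.15, numpy 2.4.6 and pysam 0.24.0, the exonic part of a peak was rebuilt from the basic protein-coding transcripts of GENCODE M39, without readthrough or TAGENE models where others exist. This gave exonic lengths on the 25 nt grid for 123 of the 135 member peaks, and for all 135 with every transcript. Peaks sharing an exonic base were joined into regions. Positions were taken on each gene's transcript of longest coding sequence. Exact permutation tests ran over all genes or regions with Benjamini-Hochberg adjustment and were tested on simulated data. Outside the family, up to 2 genes per list were named for a gained or lost region, those with the highest-ranking one. Lepr, Asb4 and Asb14 were named for having peaks in both 6 h lists only. The result of 1 marker list is not reported here. Members and lists were chosen with earlier results of these data known. Alternatives were leaving out each library, equal list lengths, the higher-scoring 50% of each list, a replicate block, numbers of peaks, and other exons or joining rules.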

Additional observations from a re-analysis of the deposited data

How the results depend on the processing

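The values recomputed under each alternative were p-values, counts and the mean number of family peaks per list, which carry no direction. Leaving out 1 library at a time gave 1 to 4 member regions gained at 0 h, 3 to 5 at 6 h and 1 to 4 at 24 h. It gave 0 to 1 lost at 0 h, at 6 h and at 24 h. Whether a member or a member region had p under 0.05 before adjustment changed with the library left out. A group then rests on 1 list, so these p-values are not given. The share of all regions gained or lost is not given for any alternative, so these member counts have no background beside them. With 1 list left in a group that list alone decides, so gained and lost counts are larger by construction. The gains at 0 h reached 4 without MCAO/R-0 h replicate 1, those at 6 h 5 without either 6 h library, and those at 24 h 4 without Sham replicate 2 or MCAO/R-24 h replicate 1. With 18775 peaks from every list, 1 member (Socs3, exact p = 0.0286) had p under 0.05 before adjustment, beside 403 genes of the series. There, 0 member regions were gained at 0 h (Cish kept a peak in 1 list) and 2 at 24 h. With the higher-scoring 50% of each list, 1 member (Socs6, exact p = 0.0476) had p under 0.05 before adjustment, beside 279 genes of the series. There, 0, 1 and 2 member regions were gained at 0 h, 6 h and 24 h, and 194 regions of the series had p under 0.05. The family held 10.9 peaks per list in place of 16.9, and Cish had no peak. With a replicate block, 239 genes had p under 0.05, and with numbers of peaks in place of bases 97 had. Deviations of same-numbered libraries correlated only weakly across genes, at 0.0336 to 0.0982. Replicate 2 nevertheless had the longer list in every group. It held 20152 against 18775 peaks in Sham, 24078 against 19837 at 0 h, 23200 against 22205 at 6 h and 22245 against 19072 at 24 h. Whether same-numbered libraries share an effect on list length was not tested. The cause of the other changes was not tested. With unknown depth, a missing peak is no sign of a missing modification.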
